A study of Homo sapiens with 12 samples.

Results

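Metallothioneins are small, cysteine-rich proteins that bind zinc and copper, and most human genes for them lie side by side on chromosome 16. Their transcription rises with free zinc, cadmium and oxidative stress through MTF1, a zinc-finger factor that binds metal response elements in their promoters, and glucocorticoids also raise some of them. Whether a given MT1 gene is expressed at all is known to differ between cell lines. Here 7 genes were followed, of 32973 genes listed in any table of unique molecular identifiers (UMIs): the metallothionein genes MT2A, MT1E, MT1M, MT1F, MT1G and MT1X, and the regulator gene MTF1. They were chosen by symbol and matched to the tables by Ensembl identifier, with no threshold on their values, and a gene that a table does not list was taken as 0 UMIs there.

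The study compared LAST-seq, in which T7 polymerase amplifies single-stranded RNA tagged at its poly-A tail, with CEL-seq2 and SMART-seq, and then profiled haploid cells without SCC4. Of its 12 samples, 9 hold UMI tables. HEK293T, a human embryonic kidney line carrying the SV40 large T antigen and grown in DMEM, gave 2 LAST-seq libraries that differ in their spike-in mix (A60 or ERCC) and 2 CEL-seq2 libraries, each of 10 sorted live cells, beside wells of cell lysate and of 15 pg total RNA from the same line. eHAP1, a fully haploid derivative of the leukaemia line HAP1, was grown in IMDM with 10-deacetylbaccatin-III, a taxane used to keep the cells haploid, and G1 haploid cells were sorted. The wild type (WT) gave 148 cells and a line lacking SCC4 (gene MAU2, the partner of the cohesin loader NIPBL), made by delivering Cas9 protein with a guide RNA and expanding single sorted cells, gave 153 cells. By the study's account the sorted eHAP1 cells came from a population expanded from a single cell. Each genotype was 1 sample, and its cells came in 2 batches of up to 80 indexed wells. Nothing in the labels says that the batches came from separate cultures, so they are not taken as replicates of a genotype, and any p-value between them measures only the spread between batches, which may be technical. Line, medium, taxane, cell cycle gate and sequencing depth differed together between HEK293T and eHAP1, and their parts in a difference between the lines cannot be told apart.

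The eHAP1 batches held 7370620 and 12301326 UMIs in WT and 6434247 and 11678465 in the SCC4 knockout (KO), and the HEK293T LAST-seq cell libraries held 1482035 and 1561067. A single WT cell of the second batch carried 926415 UMIs. The batches of a genotype shared 70 of their cell barcodes in WT and 75 in KO. After the batch mean was removed, profiles of 2 cells with the same barcode correlated with a mean r of 0.020 in WT and 0.024 in KO. Over all pairs of cells between the batches the mean r was -4.9e-05 and 1.8e-06. The highest r of all pairs, 0.097 in WT and 0.121 in KO, belonged to a pair with the same barcode. Such pairs thus correlated slightly more than others, and the source of this was not tested. Cells with the same barcode were counted as separate cells. As CPM, which scales the UMIs of a gene to a library total of 1000000, MAU2 fell from 44.2 and 41.2 in the WT batches to 9.17 and 14.5 in the KO batches. Of 6 markers of blood cells, PTPRC, GATA1, SPI1 and HBG1 were at 0 in every eHAP1 batch, while CD34 was at 0 in WT and had 7 and 11 UMIs in the KO batches and LMO2 was at 0 in WT and had 1 UMI in each. Markers of blood cells were thus absent from WT eHAP1. In HEK293T cells CD34 had 19 UMIs over the 2 LAST-seq libraries and 0 by CEL-seq2. As CPM this was 6.24 by LAST-seq, against 0.994 over both KO batches. The HEK293T marker NEFL, a neurofilament gene, was at 0 in WT but had 51 and 169 UMIs in the KO batches, and 42 and 15 in the smaller HEK293T libraries. As CPM, NEFL had 7.93 and 14.5 in the KO batches and 18.7 over both HEK293T LAST-seq libraries. NEFM, another neurofilament gene, had 6 and 9 UMIs in the KO batches and 0 in the WT batches and in LAST-seq HEK293T cells. CEL-seq2 found 19 UMIs of NEFM in HEK293T cells. PAX2 and LIN28B were present in both genotypes, and PAX2 had no more than 2 UMIs in a LAST-seq HEK293T library. LIN28B was 2.32-fold higher in HEK293T than in WT and at 0.866 of WT in KO. PAX2 was 1.66-fold higher in KO than in WT. NEFL, NEFM and CD34, at 0 in WT, each had UMIs in KO and, by LAST-seq or CEL-seq2, in HEK293T cells. LIN28B and PAX2 differed from WT in opposite directions in KO and in HEK293T. MT1E and MT1M had no UMI in HEK293T cells and higher levels in KO than in WT. The source of the NEFL, NEFM and CD34 RNA in KO was not tested. The part of cells with it in the KO values was not tested either. Mitochondrially encoded genes took 20.8% to 21.2% of UMIs in the 4 eHAP1 batches.

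In the GENCODE annotation (version 44, GRCh38), the 6 metallothionein genes span 75.6 kb of chromosome 16, from 56608584 to 56684196, in the order MT2A, MT1E, MT1M, MT1F, MT1G and MT1X. All but MT1G lie on the plus strand. MTF1 lies on the minus strand of chromosome 1, from 37809574 to 37859592. The gene MT1X lies wholly inside an unnamed long non-coding RNA gene (ENSG00000259827) on the same strand, and 52.1% of the windows of 50 bases in the last 500 bases of its transcript also occur in that RNA. The identifier of that RNA is listed in no table, and how reads that match both genes were counted is not given in the sources used here. Of the other metallothionein transcripts, 1.11% of the windows in MT1E, 6.12% in MT1F, 8.87% in MT2A, 14.6% in MT1M and 19.9% in MT1G also occur in another gene, mostly a metallothionein gene or pseudogene, and none of those in MTF1 does. The values of MT1G and MT1X are uncertain for this reason.

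Promoters from 250 bases before to 50 after the start site are shown for MT2A and MT1X, which are expressed in both lines, because the core of the metal response element, the site of MTF1, can be read in them (RefSeq, GRCh38.p14, plus strand, 5′ to 3′). The table used here matched 3 of the 7 genes. Capitals mark the cores TGCACNC and TGCGCNC on either strand, which on the minus strand read GNGTGCA and GNGCGCA. The MT2A promoter is chr16:56608334-56608633.
MT2A: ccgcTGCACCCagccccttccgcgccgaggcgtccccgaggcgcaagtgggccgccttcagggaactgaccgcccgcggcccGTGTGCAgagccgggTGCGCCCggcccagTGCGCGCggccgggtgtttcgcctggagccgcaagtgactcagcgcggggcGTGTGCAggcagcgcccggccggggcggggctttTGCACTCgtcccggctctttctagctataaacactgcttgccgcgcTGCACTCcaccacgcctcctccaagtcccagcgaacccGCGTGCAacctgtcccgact
The MT1X promoter is chr16:56682220-56682519.
MT1X: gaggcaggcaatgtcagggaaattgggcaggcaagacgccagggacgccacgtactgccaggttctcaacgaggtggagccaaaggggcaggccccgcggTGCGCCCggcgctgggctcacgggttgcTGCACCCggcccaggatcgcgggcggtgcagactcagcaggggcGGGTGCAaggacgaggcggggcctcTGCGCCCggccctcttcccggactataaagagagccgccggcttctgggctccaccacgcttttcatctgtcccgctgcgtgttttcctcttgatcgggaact
The MT2A window holds 8 such cores, of which 6 are of the TGCACNC form, and the MT1X window holds 4, of which 2 are. No 2 of these cores overlap. Of 35116 promoters of this length, 29.6% hold at least 1 core, 211 (0.601%) hold 4 or more and 7 (0.0199%) hold 8 or more. The MTF1 promoter on chromosome 1 holds no such core, and that of SLC30A1, the plasma membrane zinc exporter that is itself an MTF1 target, holds 2. A match describes the sequence and does not show that the factor binds there in these cells.

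In HEK293T cells, MT2A and MT1X were expressed, MT1F was close to the limit of detection, and MT1E, MT1M and MT1G were not detected by either UMI method. In eHAP1 cells, MT2A, MT1E, MT1M, MT1F and MT1X were all expressed, and MT1G was almost silent. Metallothionein mRNA in WT eHAP1 cells was thus made of 5 genes and in HEK293T cells mainly of 2. In bulk sums of cells, fewer expressing cells and less RNA per cell cannot be told apart, and the values of single cells are given further on.

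MT2A, the most broadly expressed metallothionein gene, had 147 CPM in HEK293T replicate 1 (exact 95% Poisson interval 128 to 168) and 172 in replicate 2 (152 to 194). It had 443 (428 to 458) in batch 1 and 447 (436 to 459) in batch 2 of WT eHAP1. These intervals cover counting error only. The values of the lines did not overlap, and WT eHAP1 held 2.79-fold more MT2A than HEK293T (2.55 to 3.06), a log2 ratio of HEK293T over WT of -1.48 that was -3.72 with CEL-seq2 libraries of HEK293T. In the 10 cells of HEK293T replicate 1, MT2A ranged from 8 to 34 UMIs with a median of 20, and in replicate 2 from 18 to 44 with a median of 23, so no cell was without it.

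MT1E, an MT1 gene whose expression is known to vary between lines, had 122 and 127 CPM in the WT batches. MT1M had 25.4 and 29.6. Neither gene had a UMI in any HEK293T cell library, which allows up to 3 UMIs, or 0.986 CPM over both LAST-seq libraries. MT1E was therefore at least 127-fold lower and MT1M at least 28.4-fold lower in HEK293T than in WT eHAP1. In the UMI tables of 15 pg RNA and of lysate wells from HEK293T both were also at 0, and SMART-seq lysate wells held 4 reads or fewer of each.

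MT1F had 27.5 and 29.7 CPM in the WT batches and 3 and 2 UMIs in the HEK293T LAST-seq libraries, or 2.02 and 1.28 CPM. It was 17.6-fold higher in eHAP1 (7.49 to 54.3), a log2 ratio of -4.00 that was -1.85 with CEL-seq2 libraries of HEK293T. CEL-seq2 found it at 6.29 (3.01 to 11.6) and 9.50 (5.19 to 15.9) in HEK293T, so in that line it was low but present. MT1G had 3 and 1 UMIs in the WT batches and none in HEK293T cells, and no difference between the lines was detectable for it.

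MT1X was the exception among the 5 genes expressed in eHAP1. It had 21.6 and 16.7 CPM in the HEK293T libraries and 24.4 and 25.3 in the WT batches, a 1.31-fold difference whose interval includes no change (0.996 to 1.75). Against CEL-seq2 libraries of HEK293T, with 29.5 and 33.9, the direction of this difference was the opposite. MTF1, the regulator, had 7.42 and 15.4 in HEK293T and 6.78 and 4.55 in WT. HEK293T had the higher pooled value (2.13-fold, 1.41 to 3.15), but its 2 libraries differed from each other by nearly as much, and with CEL-seq2 the log2 ratio went from 1.11 to 2.74.

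Of the 6 members with enough counts to compare (all but MT1G), 4 were more than 2-fold lower in both HEK293T LAST-seq libraries than in both WT batches, against 12.9% of 16173 genes lower by this rule, and none was higher, against 14.2%. In either direction 4 of 6 members and 27.1% of all genes passed. The median log2 ratio of HEK293T over WT was -2.74 over the members and 0.14 over all genes tested. Scaling by the trimmed mean of M-values in place of total UMIs lowered the pooled log2 ratios by 0.25, and turned the share of called genes higher in HEK293T from 52.4% to 41.9%, while the pooled ratios of the 4 members stayed past 2-fold, at -1.73 for MT2A and -4.25 for MT1F. Of 6 genes flanking the cluster that were compared, BBS2, a ciliary gene, was higher in HEK293T (5.11-fold), and none was lower.

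**Figure D1:**
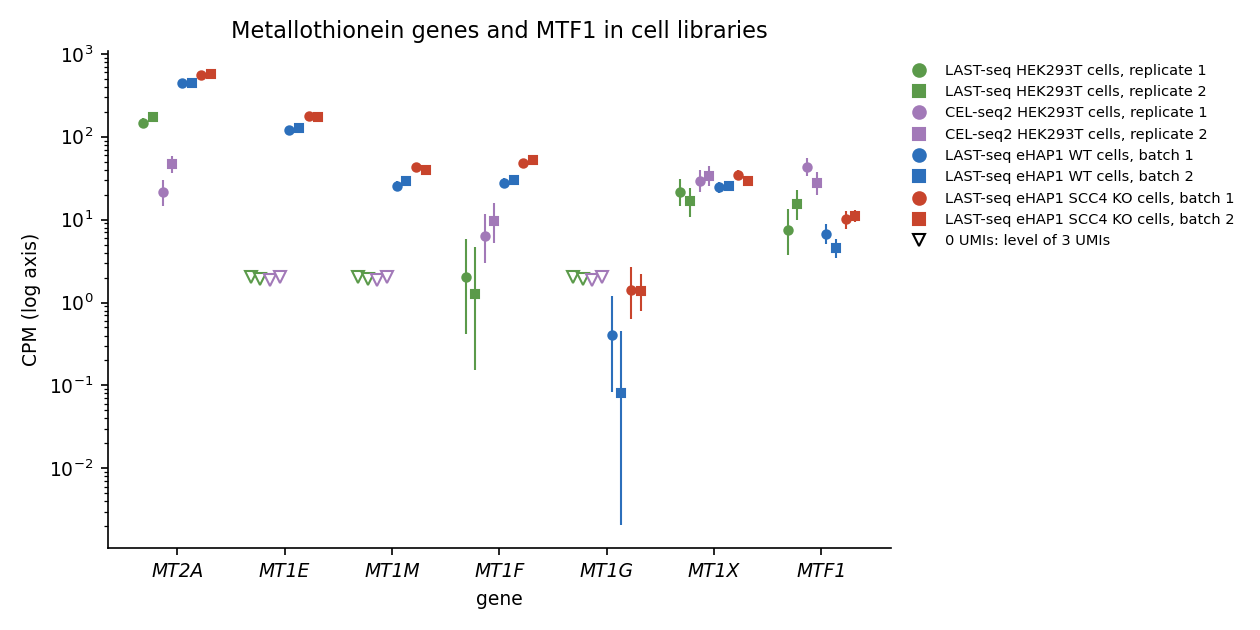
CPM (log axis) of the 7 genes in 4 HEK293T and 4 eHAP1 cell libraries, with exact 95% Poisson intervals; open triangles stand at the level of 3 UMIs in libraries with none. MT1E and MT1M lie at 25.4 or more in the eHAP1 batches and at 0 in the HEK293T libraries, while MT1X lies between 16.7 and 34.8 in all 8 libraries.

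The 2 UMI methods gave different amounts of the same metallothionein mRNAs in HEK293T. MT2A had 21.4 and 46.8 CPM in the CEL-seq2 cell libraries, so that LAST-seq gave 4.75-fold more (3.83 to 5.94), whereas MT1F was 4.77-fold higher in CEL-seq2. MTF1 was 3.12-fold higher in CEL-seq2, with 43.4 and 27.8, but not more than 2-fold in every pair of libraries. MT1X was 1.66-fold higher in CEL-seq2, also short of 2-fold in every pair. Thus 2 of the 4 members compared passed 2-fold between every pair of libraries, against 29.7% of all genes. MT2A made up 86.2% and 90.5% of the metallothionein UMIs of HEK293T by LAST-seq and 37.4% and 51.9% by CEL-seq2. The 2 methods were subsampled to the same number of reads by the study.

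Within the eHAP1 cluster, the make-up was nearly the same in the 2 batches of WT. A UMI marks 1 captured RNA molecule whatever its length. MT2A gave 68.9% (67.6 to 70.2, exact 95% binomial interval) and 67.9% (66.9 to 68.9) of the captured molecules, MT1E 19.0% and 19.3%, and MT1M, MT1F and MT1X from 3.80% to 4.50% each. These are shares by LAST-seq, the only method used on eHAP1, and in HEK293T the share of MT2A differed between LAST-seq and CEL-seq2. Together the 6 genes took 643 and 659 CPM. Of the other 13 metallothionein genes and pseudogenes examined, 4 reached the minimum of 0.1 UMI per cell, and the pseudogene MT1JP had the most UMIs, at 15.9 and 16.5 CPM in WT. MT3 and MT4, the genes of brain and squamous epithelium, were at 0 in every eHAP1 batch and every LAST-seq library of HEK293T cells.

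Among single WT cells, MT2A was on in every cell and MT1E in all but 1. MT2A was found in 148 of 148 cells, with 5 to 427 UMIs and a median of 52, and MT1E in 147 of 148, with 0 to 111 and a median of 14.5. The cell without MT1E was the shallowest, with 18022 UMIs in all and 5 of MT2A, and at 50000 UMIs per cell MT1E was found in 145 of 145 cells. MT1X was found in 91.9% of cells, MT1M in 91.2% and MT1F in 89.2%, each with a median of 3 UMIs. When each cell was thinned to 50000 UMIs, leaving out 3 shallower cells, these shares were 78.6%, 73.8% and 74.5%. Poisson sampling at the depth of these cells and 1 shared level per batch would leave 11.9 cells without MT1X, 10.2 without MT1M and 8.94 without MT1F, and 12, 13 and 16 were seen. MT1G was found in 4 of 148 cells and never in more than 1 UMI.

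Scaled to the total of each cell, MT2A lay between 240 and 643 CPM over all WT cells, with its 10th percentile at 348 and its 90th at 556, and the 15 highest cells held 13.3% of its scaled level. MT1E lay between 0 and 250, with the same percentiles at 78.8 and 177. No separate high or low group of cells was visible for either gene. For MT1M, MT1F and MT1X the 15 highest cells held 22.2% to 23.8%, on counts of a few UMIs per cell.

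**Figure D2:**
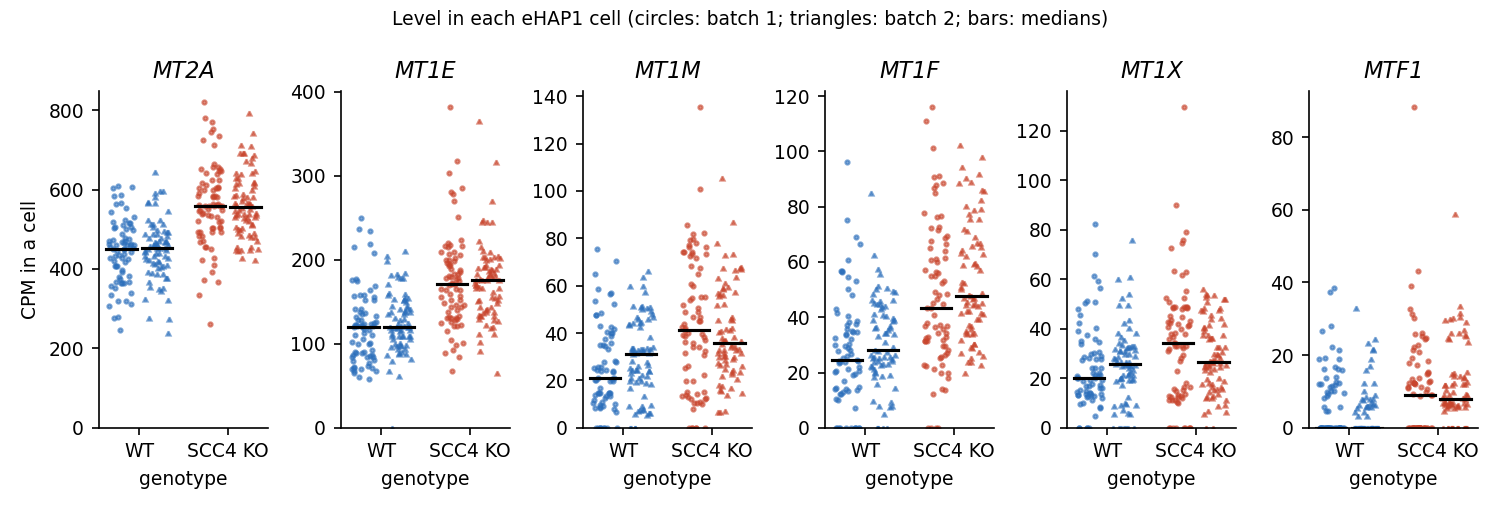
CPM of 6 genes in each of 148 WT and 153 SCC4 KO cells, with batch 1 as circles, batch 2 as triangles and a bar at the median of each batch. MT2A runs from 240 to 643 in WT, and cells without a UMI lie on the zero line in the panels of MT1M, MT1F, MT1X and MTF1.

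Spread beyond counting noise was measured by the dispersion of a negative binomial model with the total of each cell as offset. It is the squared coefficient of variation that is left after Poisson noise, 0 for pure counting noise, and intermittent transcription in bursts is a known source of it. MT2A had a dispersion of 0.0116 in WT cells, with 0.0115 and 0.0117 in the 2 batches, which is a coefficient of variation of 0.108. MT1E had 0.0128, with 0.0225 and 0.00873 by batch. MT1X had 0.0412, MT1F 0.0670 and MT1M 0.0819. Over 6817 genes with a mean of at least 2 UMIs per cell the median was 0.0301 and the 90th percentile 0.163, so all 5 metallothionein genes lay below the 90th percentile.

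The dispersion falls with the mean over all genes, so each member was also set beside the genes whose mean lay within 1.5-fold of its own, a window chosen after the data were seen. MT2A exceeded 81.9% of 248 such genes, whose median was 0.00578, and so was 2.01 times as dispersed as that median. MT1E exceeded 52.4% of 1028 genes, MT1F 52.1% of 2663 and MT1M 59.2% of 2697. MT1X exceeded 28.4% of 2776. Of the 5 genes, therefore, MT1E and MT1F were close to the middle for their level, MT2A was above it and MT1X below it. Thinning each cell to 50000 UMIs moved several of the dispersions, to 0.0366 for MT1E, 0.151 for MT1F, 0.0183 for MT1X and 0.0645 for MTF1, so the order of the members by dispersion depends on depth. MTF1, at a mean of 0.716 UMI, had a dispersion of 0.525 (0.124 and 0.933 by batch) and exceeded 74.7% of 2341 genes, but its batches differed widely.

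The technical level can be read in wells that hold the same RNA. MT2A had 20 to 40 UMIs in 10 wells of 15 pg HEK293T RNA, and its dispersion there was at the lowest value fitted, 0.001. In 10 lysate wells it had 6 to 30 UMIs and a dispersion of 0.0757. In HEK293T cells the dispersion of MT2A was 0.0135 and 0.0117 in the 2 libraries, of 10 cells each, close to its value in WT eHAP1. The lysate wells were thus more dispersed than the cells, and with 10 wells the median gene with a mean of at least 2 UMIs was itself at the lowest value fitted in these 4 libraries.

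**Figure D3:**
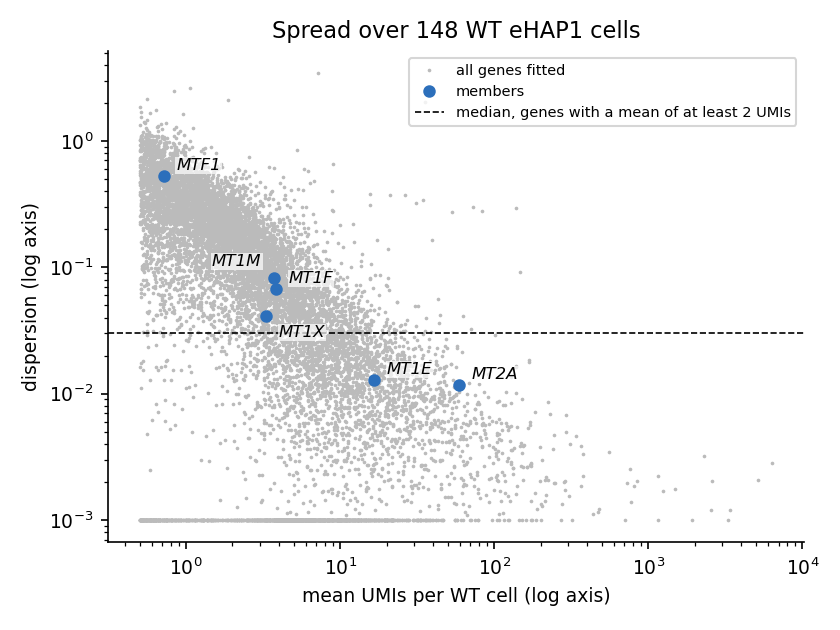
Dispersion against mean UMIs per cell (both axes log) over 148 WT eHAP1 cells for 11282 genes (grey) and for 6 members (blue); the dashed line is the median of genes with a mean of at least 2 UMIs, and 1085 genes lie at the lowest value fitted, 0.001. MT2A, at a mean of 59.2 UMIs, lies above most genes of its mean, and MT1E, MT1M and MT1F lie within the grey cloud.

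In SCC4 KO cells MT2A had a dispersion of 0.00869 (0.00836 and 0.00882 by batch), below its 2 WT batches. This order depended on depth. Thinned to 50000 UMIs per cell, MT2A had 0.0148 in WT and 0.0160 in KO, and at 20000 UMIs 0.00935 in WT and 0.00605 in KO. MT1E had 0.0128 in WT and 0.0270 in KO over both batches. By batch MT1E had 0.0225 and 0.00873 in WT and 0.0239 and 0.0286 in KO, so that 1 WT batch was close to KO. With cells thinned to 50000 UMIs the order was the opposite, 0.0366 in WT and 0.0302 in KO. MT1M had 0.0938, MT1F 0.0310 and MT1X 0.0232. Among genes of similar mean in KO, MT1E exceeded 86.9% and was 2.54 times as dispersed as their median, MT1M exceeded 83.1% (2.57 times), MT2A 70.3%, MT1F 55.2% and MT1X 27.1%. For MT1X the KO batches gave 0.0697 and 0.00229, so that the spread between batches exceeded any difference between genotypes. For MTF1 the values were 0.525 in WT and 0.329 in KO, within the spread of the WT batches.

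Cells with more of a given metallothionein mRNA tended only weakly to have more of another. Over the 5 members with a mean of at least 2 UMIs per cell, the median Spearman's rho of the 10 pairs in WT was 0.087, computed within each batch of 73 and 75 cells and averaged. Over all 23232336 pairs of 6817 genes the median was 0.0026 and the middle 90% lay between -0.137 and 0.142. The highest pair was MT2A with MT1X at rho = 0.186 (0.129 and 0.244 by batch), above 98.5% of all gene pairs. MT1E with MT1X followed at 0.143 (0.059 and 0.226), above 95.1% of all pairs. The lowest was MT1F with MT1X at -0.115, negative in both batches (-0.097 and -0.132). MT2A with MT1E, the pair with the most UMIs, gave rho = -0.123 in batch 1 and 0.339 in batch 2. Pairs in one cell share the depth of its library, and at a few UMIs per cell counting noise lowers any rho, so these are descriptions and no p-value is given.

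In KO cells the median of the same 10 pairs was 0.123, against 0.0014 over all pairs. MT2A with MT1X was again the highest, at 0.240 (0.258 and 0.222 by batch), above 99.8% of all pairs, and MT1E with MT1X gave 0.229. MT1F with MT1X, the lowest pair in WT, gave 0.127 in KO (0.117 and 0.137). The pair MT2A and MT1X was therefore positive in all 4 batches, and the 2 genes share sequence: 17 of 451 windows of MT2A occur in MT1X. The part of such reads in this rho was not tested.

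The genes whose level was most like that of MT2A over WT cells were not metallothioneins. Among them were NOP53, a ribosome biogenesis factor (rho = 0.332, with 0.480 and 0.183 by batch), and MOB1B, a Hippo pathway kinase partner (0.305, with 0.298 and 0.311). The pseudogene DYNC1I2P1 (0.273, with 0.281 and 0.265) and KCNMB4, a potassium channel subunit (0.261, with 0.161 and 0.360), were others. They were picked as the highest of the 6817 genes compared, so their rho values are high by selection. Among the genes compared MT1X ranked 96 by this measure, MT1E 703, MT1M 1538 and MT1F 4468. In KO the 5 leading genes were RPS7P8, GPR89A, TMEM98, ABCD3 and NDUFA7, none of them a leading gene in WT, and MT1X ranked 17. Neighbouring genes outside the cluster lay on both sides of 0. NUDT21, an mRNA cleavage factor, had a rho with MT2A of -0.169 (-0.025 and -0.312 by batch). OGFOD1 had -0.033 (0.031 and -0.097) and NUP93 0.058 (-0.013 and 0.128). HERPUD1, an endoplasmic reticulum stress gene, had 0.152 (-0.006 and 0.311). SLC30A1 had -0.026 (0.068 and -0.120). Of these genes, all but NUDT21 changed sign between the batches. The level of MT2A had a rho of -0.159 and -0.213 with the total UMIs of a cell in the 2 WT batches, and of 0.047 and -0.019 in the KO batches.

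**Figure D4:**
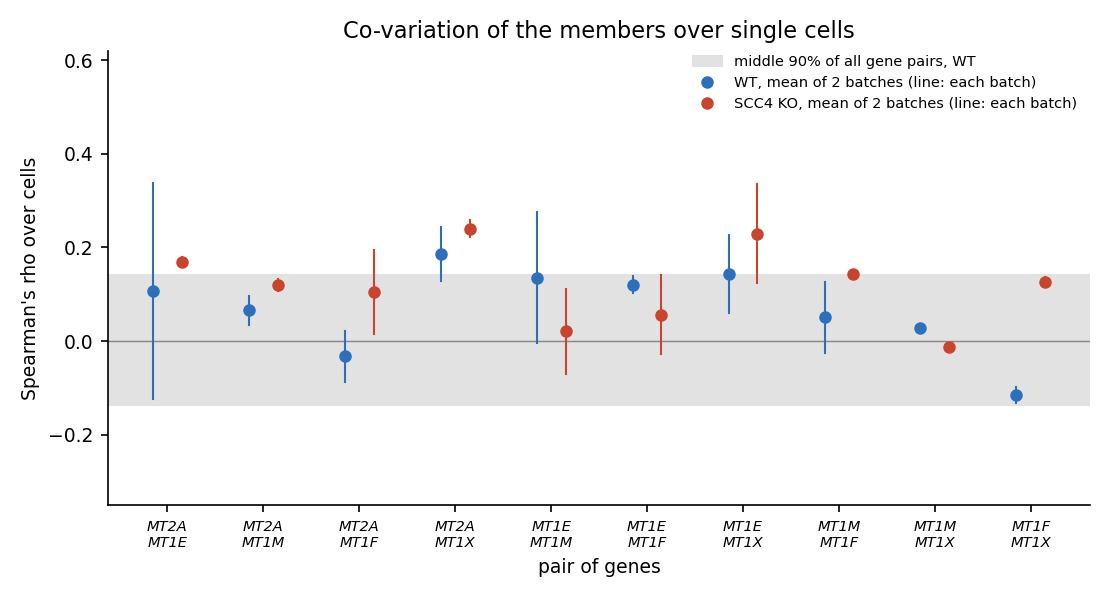
Spearman's rho of 10 pairs of metallothionein genes over single cells, as the mean of 2 batches (points) with the value of each batch at the line ends, in WT (blue) and SCC4 KO (red); the grey band is the middle 90% of all gene pairs in WT, -0.137 to 0.142. MT2A with MT1X lies above the band in both genotypes, at 0.186 and 0.240.

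In SCC4 KO cells MT2A, MT1E, MT1M and MT1F had moderately higher levels than in WT. Ratios by batch set KO and WT batches of the same number side by side, although the numbers did not pair the samples. The UMIs of the 6 metallothionein genes together, of which MT2A gives the larger part, went from 643 to 868 CPM in batch 1 (1.35-fold, 1.30 to 1.40) and from 659 to 861 in batch 2 (1.31-fold, 1.27 to 1.35), where the intervals cover counting error. MT2A went from 443 to 563 in batch 1 and from 447 to 563 in batch 2, a 1.26-fold difference (1.23 to 1.30). MT1E went from 122 to 177 and from 127 to 174, 1.40-fold higher (1.33 to 1.48). For both genes each KO batch was above each WT batch, as it also was for MT1M, MT1F, MT1X and MTF1. The share of all genes with this order was not counted.

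MT1F had 27.5 and 29.7 CPM in WT and 48.5 and 53.1 in KO, 1.78-fold higher (1.60 to 1.98), and its share of the cluster went from 4.29% and 4.50% to 5.59% and 6.17%. MT1M had 25.4 and 29.6 in WT and 43.1 and 40.0 in KO, 1.47-fold higher (1.31 to 1.64). MT1X had 24.4 and 25.3 in WT and 34.8 and 29.3 in KO, and the interval of its ratio in batch 2 includes 1 (0.991 to 1.35). MT2A gave a smaller share of the cluster in KO, 64.8% and 65.4%, than in WT.

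MT1G was almost silent in WT and found at a low level in KO. It had 3 and 1 UMIs in the WT batches and 9 and 16 in the KO batches, in 4 of 148 WT cells (2.70%, 0.741 to 6.78) and 20 of 153 KO cells (13.1%, 8.17 to 19.5). With 0.5 UMI added, the ratio over both batches was 6.15, with a counting interval of 2.34 to 26.8, and in batch 1 alone the interval includes 1 (0.858 to 19.7). Thinned to 50000 UMIs per cell, 2 of 145 WT and 9 of 152 KO cells had a UMI of it. MT1G fell below the minimum of 0.1 UMI per cell for tested genes, and of the 6 genes it shares the most sequence with its paralogs.

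MTF1, the regulator, had 6.78 and 4.55 CPM in WT and 10.1 and 11.1 in KO. The ratio was 1.49-fold in batch 1 and 2.43-fold in batch 2, and the share of cells with a UMI of it went from 42.6% to 64.7%. Thinned to 50000 UMIs, the shares were 18.6% and 39.5%. In each genotype MTF1 counts were few, 50 and 56 in WT and 65 and 130 in KO, and the log2 difference between the WT batches was -0.58, larger than for the 5 expressed member metallothioneins (0.01 to 0.22).

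None of the 6 members tested passed 2-fold in the same direction in both batches, against 11.2% of 15574 genes tested, of which 5.96% were higher and 5.19% lower in KO. MT1G, too low to be tested, was past 2-fold in both, with ratios of 3.11 and 11.6 on 3 and 1 WT UMIs (intervals 0.858 to 19.7 and 2.62 to 707). All 6 members tested were above WT in both batches, as were 40.5% of all genes. The median log2 ratio was 0.52 over the members and 0.07 over all genes, whose middle 50% lay between -0.37 and 0.52. In edgeR's quasi-likelihood test on the 4 batch sums, with Benjamini-Hochberg adjustment over all genes, 4 of the 6 members were higher in KO, against 12.6% of genes higher and 28.4% in either direction. The adjusted p was 0.00072 for MT1F, 0.0014 for MT1E, 0.011 for MT2A and 0.014 for MT1M. It was 0.15 for MT1X and 0.14 for MTF1. With 1 sample a genotype, these p-values compare batches, and loss of SCC4 and other differences between the WT and KO lines cannot be told apart.

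**Figure D5:**
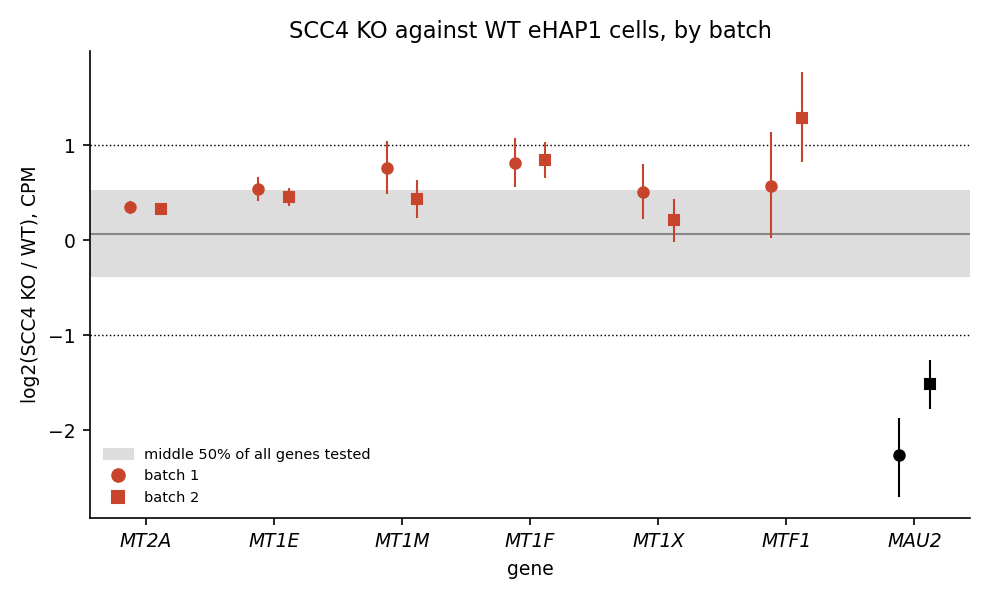
log2 ratio of SCC4 KO over WT in batch 1 (circles) and batch 2 (squares) with exact 95% intervals from the counts, for 6 members (red) and MAU2 (black); the grey band is the middle 50% of all genes tested, the grey line their median, and the dotted lines mark 2-fold. The 6 members lie above 0 in both batches, between 0.21 and 1.28, and MAU2 lies at -2.26 and -1.51.

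Other metallothionein genes and pseudogenes did not share 1 direction. Of 4 tested, 2 were above WT in both batches and 1 below, none passed 2-fold in both, and the median log2 ratio was 0.17. MT1P3 was at 2.38-fold (1.82 and 2.63 by batch), MT1P1 at 1.35-fold, MT1JP at 0.937 and MT1XP1 at 0.758 of WT, the last with 10 to 16 UMIs in a WT batch.

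Genes around the cluster lay on both sides of WT. NUP93, a nuclear pore gene, was at 0.685 of WT (adjusted p = 0.00015 by edgeR), NUDT21 at 0.779 (0.00098) and OGFOD1 at 0.884 (0.030). HERPUD1 was at 1.23-fold (adjusted p = 0.094). Of the 6 neighbours tested none passed 2-fold in both batches, 2 were above WT in both and 3 below.

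The other genes of metal handling lay on both sides of WT. Of 9 zinc exporters tested, 5 were above WT in both batches and 1 below, with a median log2 ratio of 0.34. SLC30A1 had 37.0 and 31.3 CPM in WT and 41.2 and 43.5 in KO, 1.28-fold higher, with an adjusted p of 0.070 by edgeR. SLC30A9, the exporter with the most UMIs, rose 1.26-fold (adjusted p = 0.0075). Of 11 zinc importers tested, 5 were above WT in both batches and 4 below, and SLC39A1, the importer with the most UMIs, was at 0.751 of WT. Of 7 copper genes, 2 were above WT in both batches and 3 below. SOD1, copper-zinc superoxide dismutase and the gene of this list with the most UMIs, was at 0.809 of WT and fell in edgeR (adjusted p = 0.0030), and COX17, the copper chaperone of cytochrome c oxidase, was at 0.675 (adjusted p = 0.00017). No gene of these 3 lists passed 2-fold in both batches. Of the stress genes, HSPA1A, a heat shock gene, was at 0.575 of WT, and HMOX1, the haem oxygenase gene, had 9.36 and 5.12 CPM in WT and 7.93 and 8.13 in KO, without a shared direction in the 2 batches.

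Between the lines, 1 of 8 zinc exporters tested was higher and 2 lower in HEK293T, 1 of 11 importers and 1 of 7 copper genes were higher and none lower, against 14.2% of all genes higher and 12.9% lower. SLC30A1 had 30.4 and 30.1 CPM in HEK293T, close to WT eHAP1 (fold 0.904, 0.719 to 1.13). SLC39A8, a zinc and manganese importer, was 9.22-fold higher in HEK293T, SLC30A4 5.49-fold and ATP7B, a copper exporter, 5.70-fold, while SLC30A3 and SLC30A6 were lower. Of 4 other metallothionein genes tested, 3 were lower in HEK293T, the pseudogenes MT1JP, MT1P1 and MT1P3, with 1, 6 and 0 UMIs there.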

How the data were processed

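The genes and gene lists were chosen with earlier results of these data known. The authors trimmed reads, aligned them to GRCh38.p13 with annotation 33, collapsed UMIs by sequence with zUMIs, subsampled the LAST-seq, SMART-seq and CEL-seq2 data to equal depth and kept exonic reads; bcl2fastq version 2.20 is named in the submitters' processing notes. The deposited values are whole-number UMI counts per gene and cell (read counts for SMART-seq, which carries no UMIs). Further read tables of the UMI libraries were not used. Ensembl identifiers were given symbols from GENCODE 44. Counts were summed per library or batch, scaled to total UMIs with 0.5 UMI added before ratios, and compared for genes averaging 0.1 or more UMIs a cell. A gene was called when past 2-fold in the same direction in both batches or in every pair of libraries. This choice replaced a test because each genotype is 1 sample. edgeR 4.0.16 without a replicate block, the same with the batch number as block, and DESeq2 1.42.0 were run on the batch sums as alternatives. Dispersions were fitted by maximum likelihood with a mean per batch to genes averaging 0.5 or more UMIs, and correlations used genes averaging 2 or more. Both models were tested on simulated data. All members, MAU2, the called and the highest gene of each list, SLC30A1 and the 5 genes most like MT2A were to be named, of which some are not reported here; HMOX1, HSPA1A and members of lists with a direction of their own were added after their values were seen. No protein sequence was used here. Counts of 0 allow up to 3, and exact 95% intervals cover counting error only.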

Additional observations from a re-analysis of the deposited data

Results flagged for a closer look

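SMART-seq reads, which have no UMIs and enter no comparison above, held reads of metallothionein genes that no UMI table of HEK293T lists. MT1G had 21 reads in the 6 cell wells (4.15 CPM, 2.57 to 6.34), 18 in lysate replicate 1 (2.23 CPM) and 56 in lysate replicate 2 (4.26 CPM). MT1A had 45 reads in the cells (8.89 CPM, 6.48 to 11.9), 35 in lysate replicate 1 and 72 in lysate replicate 2. MT1E had 4 reads in lysate replicate 2, in 2 of 16 wells, and none in the other SMART-seq libraries. Counts of more than 3 reads in a library were listed here. That number is a cut-off and not a limit of detection, and reads of amplified cDNA are not independent molecules. The 6 SMART-seq cell wells were nearly identical in counts to 6 wells of lysate replicate 2, so these libraries are not separate samples. MT1M, also in no UMI table of HEK293T, had 1 read in each lysate replicate, below the cut-off.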

How the results depend on the processing

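The ratios of KO over WT kept their direction for all 7 members under each of the alternatives run (88 values in all), and 13 moved by more than the spread between batches. The log2 ratio of MT2A lay between 0.26 and 0.35, of MT1E between 0.41 and 0.54, of MT1F between 0.76 and 0.84, of MT1M between 0.43 and 0.76, of MT1X between 0.21 and 0.51, and of MTF1 between 0.57 and 1.28. Leaving out the deepest WT cell of each batch, an alternative chosen after seeing the data, changed none of these directions. The number of genes called was 1737, and 6742 with no filter on low counts, 4430 by edgeR without the block, and 4342 by DESeq2; the cause was not tested beyond the different rules. It was 3902 to 4039 when either batch was left out, where 1 batch has to pass 2-fold instead of 2. The batch numbers did not pair the samples (r = -0.011 between the batch differences of WT and KO over 6717 genes), and with the number as replicate block edgeR called 4957 genes. For HEK293T against WT 4380 genes were called, and 5452 to 6600 when 1 library or batch was left out. The median dispersion of the 6 members in WT was 0.0541; it was 0.0464 with cells thinned to 50000 UMIs, 0.0369 at 20000, 0.0524 without cells under 50000 UMIs, 0.0561 with mitochondrial genes out of the total, 0.0655 after ComBat-seq, 0.0576 without the deepest cell of each batch and 0.0545 to 0.0564 in single batches. That median hides opposite moves of single genes: at 50000 UMIs MT1E went from 0.0128 to 0.0366 and MT1F from 0.0670 to 0.151, and MT1X from 0.0412 to 0.0183 and MTF1 from 0.525 to 0.0645. The median rho of 0.087 was 0.059 in cells thinned to 50000 UMIs, 0.352 on raw UMIs, where depth is shared by all genes, and 0.044 to 0.069 in single batches. With CEL-seq2 libraries of HEK293T the log2 ratio of MT1X between the lines changed direction (0.35 against -0.38), that of MT1F was -1.85 against -4.00, of MT2A -3.72 against -1.48 and of MTF1 2.74 against 1.11. At 1 to 4 UMIs per cell the dispersion and rho of MT1M, MT1F and MT1X are limited by counting noise.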
